A study of Homo sapiens with 6 samples.

Results

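The accessible regions described here are the distal ones of human chromosomes 19 and 22, that is, those more than 1 kb from both ends of every protein-coding gene. They numbered 1816 of 75701 regions in all, with 866 on chromosome 19 and 950 on chromosome 22. A region was the union of peaks that shared at least 1 bp across 6 ATAC-seq peak lists, so the members were chosen by the measured peak positions in those lists. Chromosome 19 from 25 to 27 Mb, chromosome 22 from 11 to 13 Mb and the immunoglobulin lambda locus at 22 to 22.95 Mb of chromosome 22 were left out. The pair of chromosomes was taken up with earlier results of these data known, so their peak calls are given as a description and were not tested region by region. The distal regions of the other 20 autosomes, 59554 in number, served for comparison. Gene density, which gave the group its working name, was highest on chromosome 19, with 24.8 coding genes per Mb. Chromosome 22, with 8.88 per Mb, ranked 5 of 22 autosomes, below chromosomes 17, 11 and 16. Density was taken over the length up to the last gene end, 50.8 Mb on chromosome 22. No assembly gap was taken off, so the ranks hold for this measure only.

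The lists came from ARP1, a human multiple myeloma line, a cancer of antibody-secreting plasma cells. ATAC-seq inserts sequencing adapters into open DNA with the Tn5 transposase, and the series asks how the KDM6A protein governs DNA accessibility. There were 3 libraries labelled as KDM6A knockout and 3 labelled as wild type, with no further allele, treatment or time in the labels. The labels call the libraries biological replicates but do not say which clones or cultures they came from. Any p-value therefore measures the spread between these libraries, part of which may be technical.

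KDM6A takes methyl groups off the repressive H3K27me3 mark and works with the KMT2C and KMT2D complexes, which act at enhancers. Enhancers are stretches of open DNA that raise transcription of genes at a distance, and in accessibility data they appear among the distal peaks. Chromosome 19 is known for its density of genes and for its clusters of zinc finger genes, which encode DNA-binding repressors. Distal peaks can also mark the starts of non-coding RNA genes, since only coding genes entered the distance rule. The rule used only the outer ends of each gene record, so alternative starts inside a coding gene can count as distal too. Members at such inner starts were not counted separately here.

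Of the members, 56 held a whole start window (250 bases before to 50 after the start) of a non-coding gene, 63 windows of 59 genes in all. Of these 56 regions, 49 were present in all 3 wild-type lists, 39 in all 6 lists, and 4 in all 3 wild-type lists but no knockout list, a pattern called WT-only below. Of the other members, 630 were present in all 3 wild-type lists, 473 in all 6 lists, and 18 were WT-only. Among regions in all 3 wild-type lists the median wild-type fold was 8.61 with such a window and 6.62 without. The windows of these 4 are shown first because few members behaved this way. They belong to LOC124904781 (inside ZNF550 on chromosome 19), LOC105372853 (nearest coding gene PEX26), LOC107985329 (nearest ERICH4) and UPK1A-AS1 (antisense to UPK1A). Sequences are from RefSeq, GRCh38.p14, 5′ to 3′ on the gene's strand, and capitals mark the GC box, GGGCGG or its reverse complement CCGCCC.
LOC124904781 (chr19:57559692-57559991, plus strand): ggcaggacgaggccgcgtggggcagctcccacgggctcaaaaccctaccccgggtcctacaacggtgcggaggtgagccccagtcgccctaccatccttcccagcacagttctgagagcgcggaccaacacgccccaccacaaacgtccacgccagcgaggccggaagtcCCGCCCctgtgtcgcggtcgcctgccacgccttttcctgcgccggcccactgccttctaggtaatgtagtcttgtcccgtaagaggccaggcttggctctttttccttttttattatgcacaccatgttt
LOC105372853 (chr22:18056778-18057077, plus strand): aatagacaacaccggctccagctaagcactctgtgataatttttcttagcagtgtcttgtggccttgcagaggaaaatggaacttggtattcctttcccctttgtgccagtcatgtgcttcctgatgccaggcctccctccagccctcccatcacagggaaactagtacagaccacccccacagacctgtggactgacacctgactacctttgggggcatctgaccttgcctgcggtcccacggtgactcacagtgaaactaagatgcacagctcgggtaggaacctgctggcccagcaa
LOC107985329 (chr19:41449543-41449842, minus strand): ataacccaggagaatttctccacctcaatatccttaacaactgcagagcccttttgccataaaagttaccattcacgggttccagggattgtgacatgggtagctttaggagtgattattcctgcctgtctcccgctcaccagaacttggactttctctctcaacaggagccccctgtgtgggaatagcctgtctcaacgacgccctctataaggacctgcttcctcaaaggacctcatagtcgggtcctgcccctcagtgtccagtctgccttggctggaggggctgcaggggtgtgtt
UPK1A-AS1 (chr19:35673242-35673541, minus strand): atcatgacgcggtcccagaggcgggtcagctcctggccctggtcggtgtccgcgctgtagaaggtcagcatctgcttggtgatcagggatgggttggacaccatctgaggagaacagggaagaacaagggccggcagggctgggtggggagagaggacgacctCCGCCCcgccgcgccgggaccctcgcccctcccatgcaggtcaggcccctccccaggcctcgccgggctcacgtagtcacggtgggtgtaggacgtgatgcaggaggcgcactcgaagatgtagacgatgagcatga
The next 4 windows, in the same notation, are examples of starts with a peak in all 3 knockout lists, not a representative set. LINC00662, LOC124905136 and ZNF584-DT were called in all 6 lists, and MIR23AHG, the host gene of a microRNA cluster, in 3 knockout and 2 wild-type lists.
LINC00662 (chr19:27793891-27794190, minus strand): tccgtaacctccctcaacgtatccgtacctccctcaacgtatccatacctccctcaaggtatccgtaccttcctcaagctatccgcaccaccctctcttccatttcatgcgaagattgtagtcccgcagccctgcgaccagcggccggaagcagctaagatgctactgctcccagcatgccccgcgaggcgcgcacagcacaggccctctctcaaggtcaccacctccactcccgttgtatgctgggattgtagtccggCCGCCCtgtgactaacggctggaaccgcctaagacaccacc
LOC124905136 (chr22:46035860-46036159, plus strand): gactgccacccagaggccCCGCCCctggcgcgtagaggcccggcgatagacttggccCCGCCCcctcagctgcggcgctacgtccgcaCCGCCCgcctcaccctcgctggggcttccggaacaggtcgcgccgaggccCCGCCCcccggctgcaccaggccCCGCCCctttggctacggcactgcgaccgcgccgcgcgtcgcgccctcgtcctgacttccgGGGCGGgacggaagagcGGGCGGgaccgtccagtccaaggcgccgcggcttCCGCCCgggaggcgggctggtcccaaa
ZNF584-DT (chr19:58408414-58408713, minus strand): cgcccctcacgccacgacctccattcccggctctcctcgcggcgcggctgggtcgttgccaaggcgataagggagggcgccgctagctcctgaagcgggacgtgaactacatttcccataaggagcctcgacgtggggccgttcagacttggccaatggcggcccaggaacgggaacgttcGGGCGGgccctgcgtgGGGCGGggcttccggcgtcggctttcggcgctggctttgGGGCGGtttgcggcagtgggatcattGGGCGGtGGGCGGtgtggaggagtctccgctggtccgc
MIR23AHG (chr19:13842869-13843168, minus strand): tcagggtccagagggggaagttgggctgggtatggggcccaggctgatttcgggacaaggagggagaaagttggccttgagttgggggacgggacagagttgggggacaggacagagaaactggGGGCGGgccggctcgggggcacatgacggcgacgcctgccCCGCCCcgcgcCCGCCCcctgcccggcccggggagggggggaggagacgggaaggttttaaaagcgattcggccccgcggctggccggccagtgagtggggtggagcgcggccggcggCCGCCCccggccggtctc
Among the WT-only starts the base composition varied: the windows of LOC124904781 and UPK1A-AS1 were 62.3% and 65.7% G or C with 1 GC box each. Those of LOC105372853 and LOC107985329 were 53.7% and 52.3% G or C and held none. The window of LOC124905136 was 77.0% G or C with 8 GC boxes and that of MIR23AHG 72.3% with 4. That of ZNF584-DT was 69.0% with 5 and that of LINC00662 59.3% with 1. Such starts varied too: the window of LOC102724608, called in all 6 lists, was 43.0% G or C and held no GC box. The median of the 46 windows within members called in all 6 lists was 67.5% G or C. On either strand, the GC box occurred in 60.3% of the 63 windows within members, in 40.1% of the 618 non-coding windows of both chromosomes and in 45.0% of all 35116 windows of the table. The CCAAT box (CCAAT or ATTGG) occurred in 23.8% of the 63 windows against 34.6% of all. The AP-1 site (TGACTCA or TGAGTCA) occurred in 6.35% against 4.95%, and the E box (CACGTG) in 7.94% against 7.26%. In the 618 non-coding windows of both chromosomes the CCAAT box occurred in 31.7%, the AP-1 site in 5.83% and the E box in 6.96%. Some of the 63 windows overlap one another, such as those of LOC105373017. A match is a stretch of letters, not a bound site.

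Across the series the knockout lists were shorter and had a lower background pileup. They held 33055 to 37314 peaks against 54443 to 56048 in the wild type. The background pileup recovered from the fold values was 2.31 ± 0.257 (SD, n = 3) in knockout and 3.52 ± 0.357 (SD, n = 3) in wild-type libraries, and the lowest fold that was called was 3.23 ± 0.121 and 2.81 ± 0.0995. A weak region therefore needed a higher fold to be listed in the knockout; the part of depth in each result was not tested. A peak at an end of KDM6A had folds of 11.4, 15.1 and 12.6 in knockout and 8.76, 13.6 and 10.7 in wild-type libraries; it does not show whether the gene was disrupted, so it does not check the labels. Every list had a peak at an end of 7 of 10 plasma cell markers (SDC1 and IRF4 among them), and each of the 10 was marked in at least 2 lists; SLAMF7 was marked in 2 wild-type lists and JCHAIN in all 3 wild-type lists, and neither in a knockout list. Markers of monocytes (4), erythroid cells (3) and epithelium (2) had no such peak in any list. CD3E of 4 T cell markers, CIITA of 4 B cell markers and COL1A1 of 3 fibroblast markers were marked in every list. The B cell marker PAX5 was marked in 5 lists and the T cell marker CD2 in 2 wild-type lists. The remaining markers of these cell types had no such peak in any list.

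The numbers of distal peaks on chromosomes 19 and 22 overlapped between genotypes, whereas on the other autosomes every knockout library had fewer than every wild-type library. Chromosome 19 had 509, 609 and 559 distal peaks in the knockout libraries and 602, 685 and 579 in the wild type. Chromosome 22 had 423, 496 and 594 in knockout and 441, 490 and 405 in wild-type libraries. The knockout mean was 89.9% of the wild-type mean on chromosome 19 and 113% on chromosome 22. On the other 20 autosomes the libraries had 21040, 24588 and 23412 distal peaks in knockout and 40712, 40372 and 42409 in wild-type libraries. The knockout mean there was 55.9% of that of the wild type, but these chromosomes differed. On chromosome 21 it was 90.8%, above chromosome 19, and on chromosomes 20 and 16 it was 72.6% and 70.8%. The lowest was 40.9%, on chromosome 4. DNA copy number was not analysed here, and no value per chromosome was adjusted for it.

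**Figure D1:**
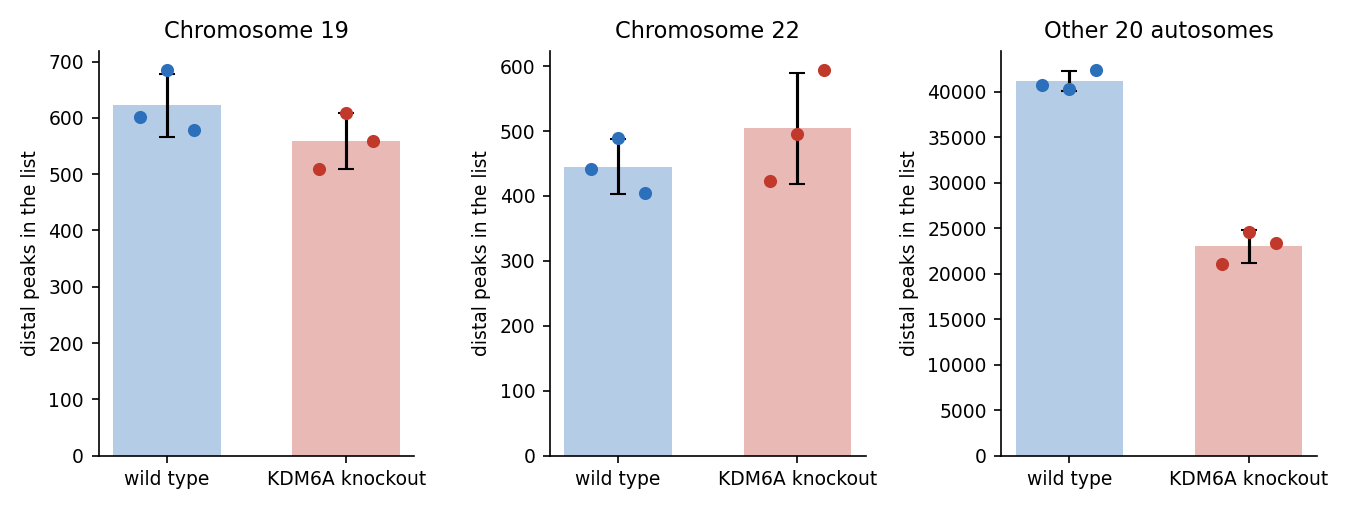
Distal peaks per library (y axis, number of peaks) on chromosome 19, chromosome 22 and the other 20 autosomes; points are the 3 libraries of a genotype, bars their mean and whiskers 1 SD. The genotypes overlap on chromosomes 19 and 22. On the other autosomes counted together the highest knockout library (24588) is below the lowest wild-type library (40372).

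As a share of a library's distal autosomal peaks, chromosomes 19 and 22 together made up 4.24%, 4.30% and 4.69% in knockout and 2.50%, 2.83% and 2.27% in wild-type libraries. Every knockout library was above every wild-type library. The difference of the means was 1.88 percentage points, with an exact two-sided permutation p of 0.1, the smallest that 20 labellings of 6 libraries allow. The chromosomes were picked with these values known, so the p is no independent evidence. Both contributed: chromosome 19 held 2.32% ± 0.0475 (SD, n = 3) against 1.47% ± 0.160 and chromosome 22 held 2.09% ± 0.283 against 1.06% ± 0.123. The length covered by distal peaks on chromosome 22 averaged 386 kb in knockout and 382 kb in wild-type libraries, and on chromosome 19 it averaged 483 kb and 572 kb. On the other autosomes it averaged 17.7 Mb and 34.96 Mb. The third knockout library had 166 of the 300 regions of chromosome 22 found in 1 knockout list alone, against 47 and 87 in the other knockout libraries. Their median fold there was 3.65, near the library's lowest called value of 3.09. In all, 441 of the 950 regions of chromosome 22 (46.4%) and 232 of the 866 of chromosome 19 (26.8%) were found in a single list, against 33.7% on the other autosomes.

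Very few distal regions of either chromosome were lost from all knockout lists. On chromosome 19, of 416 regions present in all 3 wild-type lists, 15 counted as WT-only (3.61%, Wilson 95% interval 2.20 to 5.86%, counting error only). On chromosome 22 the count was 7 of 263 (2.66%, interval 1.30 to 5.39%). On the other autosomes 23.1% were WT-only (6359 of 27504). The share called in all 6 lists was 74.8% on chromosome 19 and 76.4% on chromosome 22, against 47.0% elsewhere. The converse pattern, KO-only (all 3 knockout lists and no wild-type list), applied to 2 of 342 regions called in all knockout lists on chromosome 19 (0.585%) and to 5 of 247 on chromosome 22 (2.02%, interval 0.868 to 4.65%), against 0.577% on the other autosomes. The count on chromosome 19 was thus near the background. Chromosome 21 had 5 of 327 KO-only (1.53%) and chromosome 16 had 4 of 382 (1.05%), while chromosomes 17 and 20 had 0.625% and 0.478%.

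Each knockout library showed the high overlap. Of the 416 wild-type regions of chromosome 19, the 3 knockout lists held 82.5% to 89.2%, where regions of equal wild-type fold on other autosomes were held at 56.4% to 62.8%. Of the 263 wild-type regions of chromosome 22 they held 86.3% to 91.6%, against 52.6% to 59.3%. In the reverse direction, the wild-type lists held 94.2% to 96.8% of the knockout regions of chromosome 19 and 88.7% to 93.1% of those of chromosome 22, where equal knockout fold gave 97.1% to 98.0% elsewhere.

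The WT-only share falls with peak strength on the other autosomes, so the members were set against regions of equal wild-type fold. The regions present in all 3 wild-type lists were divided into 10 strata of mean wild-type fold, and the other autosomes' share in each stratum was weighted by the members' numbers. This gave 25.01% for chromosome 19 and 27.6% for chromosome 22, so the observed shares were lower by the differences of -21.4 and -24.9 percentage points. Together, 22 WT-only regions stood against 177 at the other autosomes' rates. In the weakest stratum (mean fold 3.03 to 4.42) 11.8% of the members and 51.9% of the other regions were WT-only. The shares were 9.30% and 46.9% in the second stratum, 3.41% and 43.3% in the third and 3.28% and 33.8% in the fourth. From the fifth stratum up, at a mean fold above 6.38, 0 of 368 members were WT-only, which allows a share of up to 0.815%, while on the other autosomes the share went from 25.3% down to 0.108%.

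**Figure D2:**
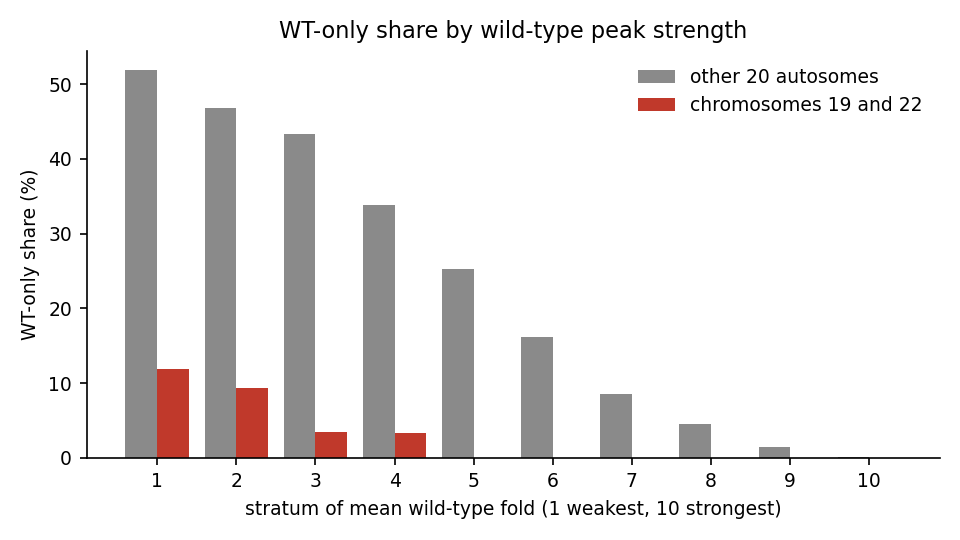
WT-only share (y axis, percent of distal regions present in all 3 wild-type lists) in 10 strata of mean wild-type fold (x axis, weakest first) for chromosomes 19 and 22 together and for the other 20 autosomes. Bars of the members are lower in every stratum and are at 0 from the fifth stratum up.

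The other autosomes did not all behave alike. Their observed share minus the share at equal fold had a median of -0.28 percentage points and ran up to 6.93 on chromosome 4. Chromosome 21 stood with the members, with a WT-only share of 6.92% and a difference of -22.1, so chromosome 19 ranked 3 of 22 by that difference, behind chromosomes 22 and 21. Chromosome 20 followed with 12.2% and -18.3, chromosome 14 with 15.03% and -11.0, chromosome 16 with 17.2% and -7.39 and chromosome 17 with 18.6% and -7.23. Gene density alone did not order the chromosomes, since chromosome 17 had 14.04 coding genes per Mb and chromosome 21 had 5.12. Over the 22 autosomes the difference had a Pearson correlation of 0.61 with chromosome length and of -0.52 with gene density (Spearman 0.55 and -0.49). Without chromosomes 19 and 22 these were 0.48 and -0.31 over 20 autosomes. The chromosomes share their libraries, and these correlations are descriptions.

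**Figure D3:**
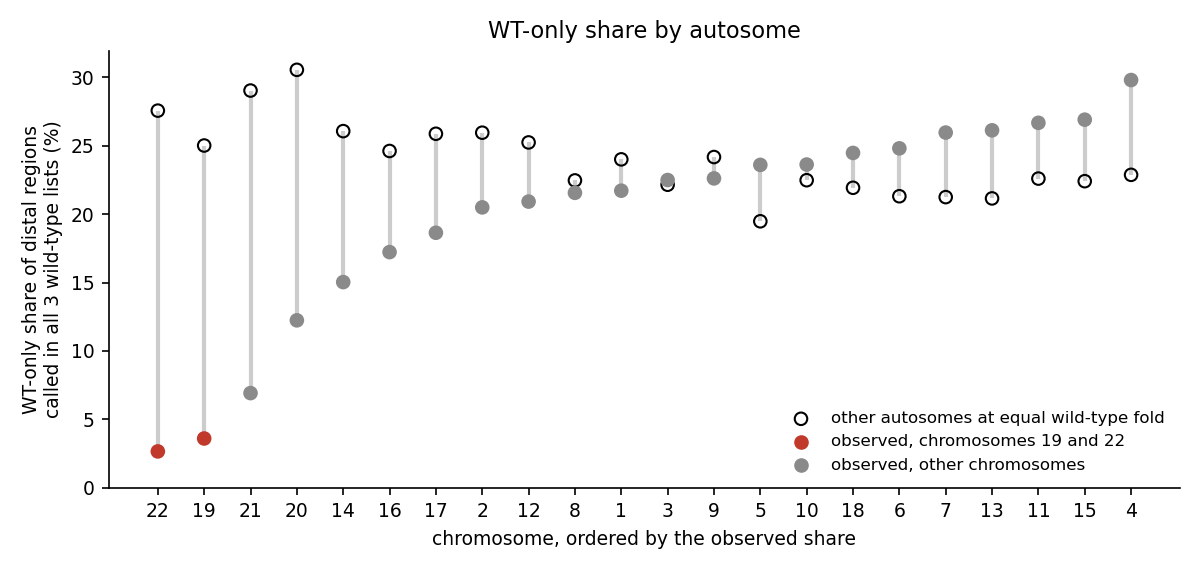
WT-only share of distal regions for each autosome (filled points, percent) beside the share that regions of equal wild-type fold on other autosomes gave (open circles). Chromosomes 22 and 19 are lowest at 2.66% and 3.61%, chromosome 21 is next at 6.92% and chromosome 4 is highest at 29.8%.

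Peak folds on chromosomes 19 and 22 also differed little between genotypes at the regions called in all 6 lists. The median fold of the 311 such regions of chromosome 19 was 7.82, 8.85 and 7.86 in the knockout lists and 7.47, 9.24 and 7.75 in the wild-type lists. For the 201 regions of chromosome 22 it was 7.82, 8.20 and 7.58 in knockout and 6.83, 8.26 and 6.71 in wild-type libraries. The genotypes overlapped on both. On the other autosomes the medians were 7.52, 8.20 and 7.30 in knockout and 10.04, 11.2 and 10.7 in wild-type libraries, without overlap. A fold is a ratio to the background of its own list, so the ratio of the knockout to the wild-type mean fold compares positions within lists and not absolute accessibility. The median log2 ratio was 0.03 on chromosome 19 and 0.09 on chromosome 22, against -0.42 on the other autosomes. At equal list length, described last, the values were -0.0031, 0.03 and -0.47. Of the other autosomes, chromosomes 21, 17 and 20 came nearest in the full lists, with medians of -0.03, -0.08 and -0.12. Regions of equal wild-type fold elsewhere had a mean log2 ratio of -0.26, where the members had 0.06.

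Taking single regions, all 3 knockout folds lay below all 3 wild-type folds at 20 of 311 regions on chromosome 19 (6.43%) and at 4 of 201 on chromosome 22 (1.99%), against 50.8% on the other autosomes. All 3 knockout folds lay above at 30 regions of chromosome 19 (9.65%) and 25 of chromosome 22 (12.4%), against 2.39%. Chromosomes 21, 20, 16 and 17 lay between, with 7.56%, 5.95%, 5.75% and 5.10% above. Their shares below were 12.03%, 21.1%, 33.6% and 19.4%. At the other 433 of the 512 regions of chromosomes 19 and 22 the genotypes overlapped.

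**Figure D4:**
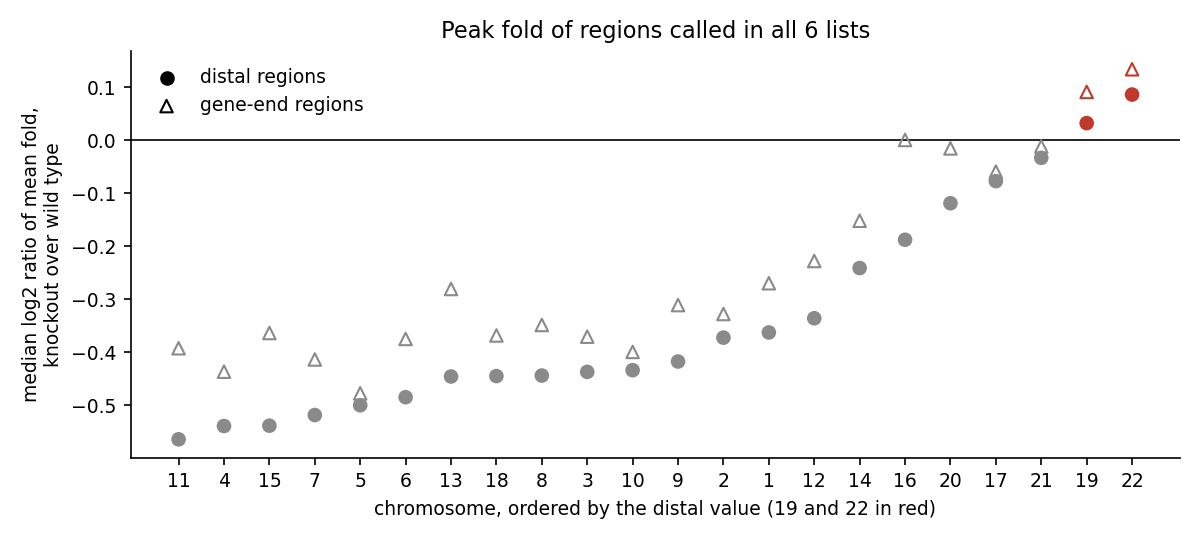
Median log2 ratio of knockout to wild-type mean fold (y axis) for regions called in all 6 lists, by autosome; filled circles are distal regions and open triangles gene-end regions. Chromosomes 19 and 22 (red) have the highest distal values, 0.03 and 0.09, and chromosome 11 the lowest, -0.56.

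Gene-end regions of the same chromosomes followed suit. Within 1 kb of coding gene ends, the median log2 ratio was 0.09 on chromosome 19 (621 regions called in all 6 lists) and 0.13 on chromosome 22 (225 regions), against -0.31 on the other autosomes. WT-only regions there were 7 of 669 and 0 of 235 (which allows up to 1.28%), against 2.79%. Chromosomes 16, 21 and 20 came close, with gene-end medians of 0.0005, -0.01 and -0.02. Their WT-only regions were 4 of 458, 3 of 99 and 3 of 255. Libraries had 964 ± 24.8 (SD, n = 3) gene-end peaks on chromosomes 19 and 22 together in knockout and 971 ± 28.8 in wild-type libraries.

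Base composition moved with the fold ratio. Among regions of the other autosomes that were called in all 6 lists and held a RefSeq start window, coding or not, the median log2 ratio was -0.48 where the window was under 50% G or C. It was -0.42 at 50 to 60%, -0.33 at 60 to 70% and -0.20 at 70% and over. On chromosomes 19 and 22 the medians in these classes were 0.01 (12 regions), 0.02 (119), 0.06 (358) and 0.22 (259). Within each class the members' chromosomes were thus above the other autosomes. Median window composition was 62.7% G or C on chromosome 19 and 63.0% on chromosome 22, ranks 3 and 2 of the 21 autosomes with windows in the table. Over these autosomes it had a Pearson correlation of 0.63 with the median distal log2 ratio (Spearman 0.54), and of 0.46 without both chromosomes. These windows are mostly not in the distal regions, whose own sequence was not used here.

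Of the 5 members of chromosome 19 with the highest wild-type fold among those called in all 6 lists, 3 lay in a gene-poor stretch beside the left-out interval, at least 2020698 bp from the nearest coding gene, UQCRFS1, a subunit of mitochondrial complex III. The strongest, chr19:27144626-27153453, was 8828 bp wide, against a median of 1395 bp for the regions of chromosome 19 in all 6 lists. Its folds were 36.4, 40.3 and 45.5 in knockout and 42.7, 34.8 and 34.2 in wild-type libraries, which overlapped. The region at the start of LINC00662, chr19:27792596-27794663, was among the 20 with all knockout folds lower: its folds of 15.7, 18.03 and 20.8 in knockout libraries were all below the wild-type folds of 27.1, 28.7 and 25.4. Inside DNAJB1, which encodes an HSP40 co-chaperone of the heat shock response, chr19:14517168-14519152 had folds of 34.6, 31.5 and 38.2 in the knockout. Its wild-type folds of 20.9, 29.7 and 21.2 were all lower. This region lay 2399 bp from the nearest end of the DNAJB1 record, and whether it holds a start of the gene is not given here.

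On chromosome 22 the strongest member, chr22:50807449-50808471, lay 23813 bp from RABL2B. Its folds were 88.2, 81.6 and 103 in knockout and 76.9, 101 and 72.7 in wild-type libraries. The region chr22:20702004-20704560, 3131 bp from PI4KA, a lipid kinase of the plasma membrane, had 32.2, 25.2 and 33.1 against 24.6, 30.9 and 27.9. The start of LOC124905136 lay in chr22:46035183-46037335, with 28.6, 32.8 and 26.9 in knockout and 23.9, 33.5 and 23.3 in wild-type libraries. Those 3 overlapped between genotypes, as did the regions nearest FAM246B (27.9 ± 7.53 against 25.5 ± 1.09, SD, n = 3) and POTEH (20.5 ± 1.67 against 23.6 ± 5.04).

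**Figure D5:**
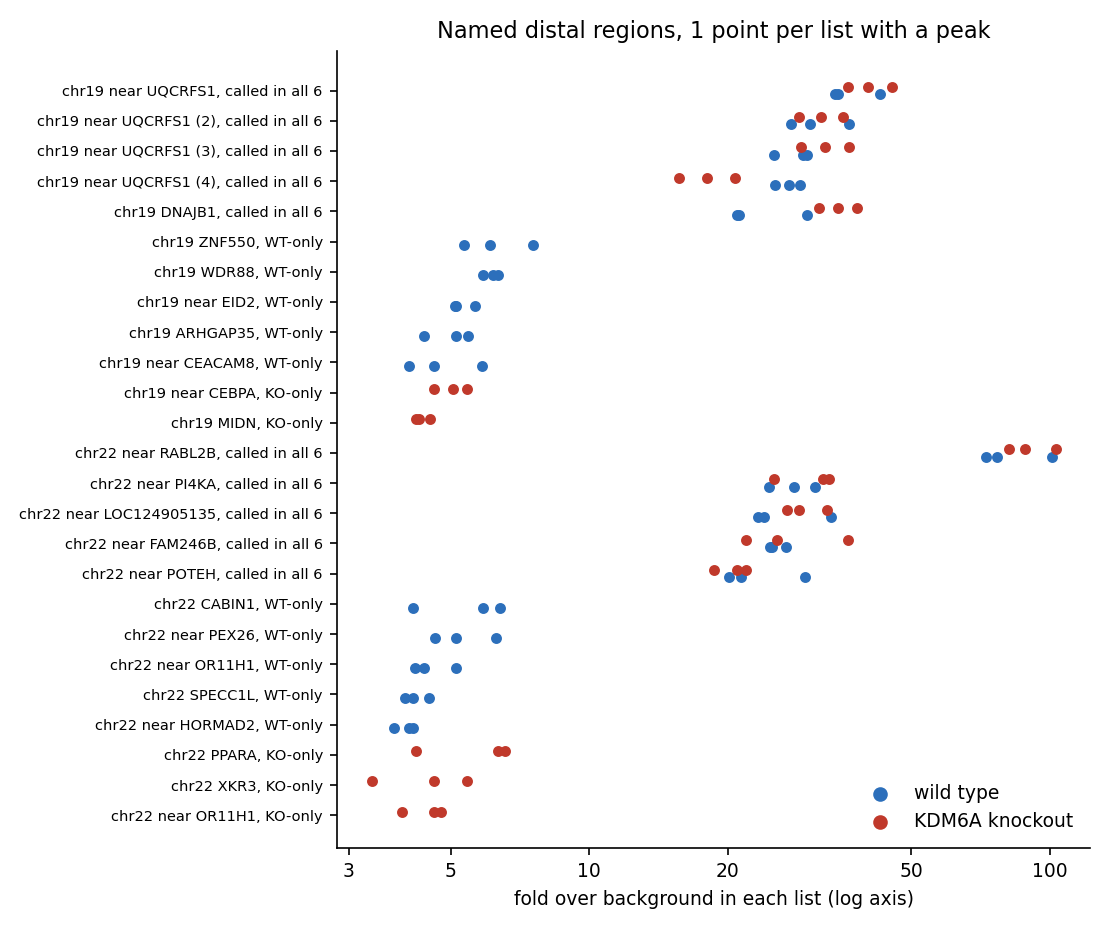
Fold over background in each list (x axis, log scale) for the named distal regions, 1 row each, labelled by the gene they lie in or nearest to; blue points are wild-type and red points knockout libraries, and a list without a peak has no point. Regions called in all 6 lists reach a fold of 103, and the WT-only and KO-only ones lie between 3.37 and 7.53.

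The WT-only members were weak peaks. Inside ZNF550, a zinc finger gene, chr19:57559498-57560068 had the highest wild-type folds of them, 5.34, 7.53 and 6.08; it holds the LOC124904781 start shown above. Inside WDR88, chr19:33143827-33144338 had 6.19, 6.32 and 5.87. The other WT-only regions with the highest folds on chromosome 19 were nearest EID2 (mean 5.30), inside ARHGAP35 (4.98) and nearest CEACAM8 (4.83), a granulocyte adhesion molecule. On chromosome 22 they lay inside CABIN1 (5.47), an inhibitor of calcineurin, nearest PEX26 (5.34, the LOC105372853 start), nearest OR11H1 but 2163422 bp from it (4.56), inside SPECC1L (4.20) and nearest HORMAD2 (3.99).

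The KO-only members numbered 7 and were weak too. Inside PPARA, a nuclear receptor of fatty acid metabolism, chr22:46239269-46240471 had folds of 6.32, 6.56 and 4.21. At 32318 bp from CEBPA, a myeloid transcription factor, chr19:33267022-33267616 had 5.42, 4.59 and 5.05. Inside MIDN, chr19:1250666-1251639 had 4.51, 4.26 and 4.21. The others were inside XKR3 (mean 4.46), inside TOM1 (4.33), inside SCUBE1 (4.21) and 1259735 bp from OR11H1 (4.42); TOM1 and SCUBE1 were named after their values were seen.

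Counts near genes were low for every gene list. Within 50 kb of a coding gene of the pair of chromosomes lay 570 members present in all wild-type lists, of which 19 (3.33%) were WT-only, and the all-6 members there had a median log2 ratio of 0.05. Of 1451 coding genes on chromosome 19, 788 had such a wild-type member and 50 a WT-only one; of 451 on chromosome 22 the numbers were 284 and 10. The 8 lists, with 200 genes in all, had 0 to 2 WT-only regions each. They describe the members, and nothing is called particular to a list.

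Surface and receptor genes of B and plasma cells had 0 WT-only of 14 members, with a median log2 ratio of -0.02. CD320, the transcobalamin receptor, had 3 members in all 6 lists, and IL2RB, a chain of the IL-2 receptor, had 2. Ligands and receptors of natural killer, T and myeloid cells had 2 of 23. Near this list's CEACAM1, an inhibitory adhesion receptor, chr19:42497538-42498614 had wild-type folds of 4.06, 6.08 and 3.56 and no knockout peak. Near LIF and OSM, cytokines of the IL-6 family, the HORMAD2 region chr22:30220723-30221794 had 4.06, 4.13 and 3.77. IL17RA, a receptor chain for IL-17, had 7 members within 50 kb, of which 4 were in all 6 lists, and of those 4 the one inside the gene had folds of 7.22, 5.90 and 5.61 in knockout and 5.34, 6.56 and 6.71 in wild-type libraries. Interferon and antiviral genes had 1 of 16, chr19:996153-996912, nearest WDR18 and within 50 kb of TMEM259, with wild-type folds of 3.84, 5.35 and 4.82; near APOBEC3A and APOBEC3B, cytidine deaminases that restrict viruses, 2 of 4 and 2 of 5 members within 50 kb were in all 6 lists.

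Genes of the unfolded protein response and secretion, which plasma cells rely on, had 1 of 22, inside PPP6R1 and within 50 kb of HSPBP1, a regulator of HSP70. UBE2L3 and SDF2L1, which share some members, had 3 each in all 6 lists. Among these chr22:21656802-21658604 had folds of 12.04, 13.8 and 13.7 in knockout and 11.5, 13.6 and 10.5 in wild-type libraries, which overlapped. Transcription factors had 1 WT-only of 48, the WDR18 region again, which is also within 50 kb of ARID3A, and 2 KO-only, near CEBPA and PPARA. FOSB, an AP-1 subunit, had the most, 5 members in all 6 lists. Inside the neighbouring ERCC1, chr19:45423181-45424993 had 15.3, 15.7 and 17.96 in knockout and 11.5, 17.7 and 11.1 in wild-type libraries. A second ERCC1 region, chr19:45439407-45440763, had 12.04, 12.5 and 14.6 against 6.62, 12.4 and 9.43, so that its knockout folds were not all above. Between FOSB and RTN2, chr19:45477858-45479479 was lower in the knockout, with 8.73, 10.2 and 7.58 against 12.6, 12.9 and 11.3. Inside RTN2, chr19:45492522-45493856 had 8.73, 8.85 and 7.58, all above 6.83, 6.56 and 6.50. The fifth, chr19:45419041-45420162 inside ERCC1, overlapped between genotypes, with 5.12, 5.90 and 4.77 against 3.84, 7.05 and 5.24. Neighbouring members around FOSB thus differed in both directions. POU2F2, which encodes the B cell factor OCT2, had 3 in all 6 lists, and its member inside the gene, chr19:42132656-42133850, had 6.02, 7.54 and 7.58 against 5.13, 6.32 and 4.61, with a small overlap.

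Chromatin regulators had 1 of 24, the UPK1A-AS1 start within 50 kb of KMT2B, a histone H3K4 methyltransferase, with wild-type folds of 3.84, 3.65 and 5.24. A further KMT2B neighbour, chr19:35701975-35703246, was in all 6 lists with 11.4, 15.4 and 12.4 against 13.03, 18.5 and 12.4. Apoptosis, cell cycle and survival genes had 0 of 27 and a median log2 ratio of 0.13, and 1 KO-only region, the MIDN one, within 50 kb of the tumour suppressor kinase gene STK11. Among them PIM3, a serine/threonine kinase that promotes survival, had 3 members in all 6 lists, the strongest being chr22:49933015-49937272 with 16.3, 20.98 and 15.99 in knockout and 12.2, 16.8 and 9.85 in wild-type libraries. Near BID, a pro-apoptotic BCL2 family member, chr22:17776898-17780431 had 6.62, 7.54 and 7.02 against 8.11, 9.24 and 5.66. The genotypes overlapped at all 3 of these regions near KMT2B, PIM3 and BID. Signalling genes had 1 of 29, inside TLE5 and within 50 kb of GNA11, a G protein subunit. BCR, the breakpoint cluster gene, had 5 members in all 6 lists; inside it chr22:23280515-23282367 had 9.63, 12.1 and 11.8 against 8.33, 10.7 and 9.01, and chr22:23182083-23183500 had 5.42, 7.21 and 4.49 against 3.42, 4.62 and 4.19, and both overlapped. Around the 250 ZNF genes of chromosome 19, 1 of 54 was WT-only, and the median log2 ratio was 0.03.

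WT-only shares were below those of the other autosomes in each class of position examined. Inside coding genes 8 of 318 members were WT-only (2.52%) and outside 14 of 361 (3.88%), against 23.5% and 22.8% on the other autosomes. Classes of distance to the nearest gene end were 1 to 5, 5 to 20, 20 to 100 and over 100 kb. Across them the members had 2.26% to 3.83%, and the other autosomes 19.3% to 26.1%. On chromosome 19 the count was 3 of 168 below 25 Mb and 12 of 248 above 27 Mb. On chromosome 22 it was 2 of 51 below 16 Mb, around the repeat-rich short arm and centromere, and 5 of 212 above. The median log2 ratio was 0.08 and 0.09 in these parts of chromosome 22. In bins of 5 Mb it ran from -0.13 to 0.10 on chromosome 19 and from 0.02 to 0.20 on chromosome 22. WT-only shares in these bins, where at least 10 wild-type regions were present, ran from 0% to 15.4% (2 of 13, at 30 to 35 Mb) on chromosome 19 and from 0% to 6.67% on chromosome 22. At the 1 kb bound of the distance rule, the nearest members inside it were 1007 bp from CGB7 (in all 6 lists, mean wild-type fold 5.26) and 1008 bp from GYS1 (1 knockout list). Just outside it were regions at 1000 bp from OSCAR and 999 bp from SLC17A7, both in all 6 lists, with mean wild-type folds of 9.51 and 15.04.

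At equal list length the direction of the exclusive calls on the pair of chromosomes turned towards the knockout. For this, every list was limited to its 33055 strongest peaks by p-value. That kept the shortest knockout list whole and cut the wild-type lists most. With lengths equal, peak counts on the pair track its share of each list. The turn is therefore not separate from the difference in share given above. Distal peaks on both chromosomes then numbered 932, 913 and 952 in knockout and 525, 575 and 471 in wild-type libraries. Of them, KO-only regions numbered 40 of 337 on chromosome 19 (11.9%, interval 8.84 to 15.8%) and 45 of 226 on chromosome 22 (19.9%, interval 15.2 to 25.6%), against 5.18% on the other autosomes. WT-only regions numbered 2 of 231 and 0 of 130, against 11.0%. A count of 0 of 130 allows a share of up to 2.31%. The 2 on chromosome 19 were those in ZNF550 and WDR88. On the other autosomes together WT-only regions outnumbered KO-only ones, with 1850 against 664. The same turn was seen on chromosomes 21 and 20, where WT-only regions numbered 1 of 203 and 4 of 152. KO-only regions there numbered 41 of 297 (13.8%) and 23 of 184 (12.5%). Chromosome 16 had 28 WT-only and 33 KO-only regions, and chromosome 17 had 30 and 28. KO-only in this sense does not mean absent from the wild type: the MIR23AHG start, chr19:13841150-13843210 in these lists, with knockout folds of 6.62, 9.83 and 7.86, was in 2 of the full wild-type lists. The other strongest ones were nearest SULT2A1 (mean 6.24) and TSPAN16 (6.11) on chromosome 19. On chromosome 22 they lay inside CELSR1 (7.60), an atypical cadherin, in the gene-poor chr22:13885712-13887781 (7.11) and inside PICK1 (6.98), a scaffold protein.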

How the data were processed

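ATAC-seq libraries of ARP1 cells, 3 KDM6A knockout and 3 wild type, were grouped by their titles. Reads were pairs of 150 bp, per the labels. Trimmomatic, Bowtie2 and MACS2 2.1.2 and the build GRCh38 are named in the submitters' processing notes. Their settings, any Tn5 shift and any removal of duplicates are not stated in those sources. Peaks were called per library, since each sample has its own list. The deposited lists give each peak's score (10 times the −log10 q-value), fold over background (a ratio), −log10 p-value and −log10 q-value, as the authors' peak caller wrote them, and the fold is the authors' own value for each peak.

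The mitochondrial peak, 1 per list, was left out. No filter for repeats or mappability was applied to the lists here, so strong peaks in repeated sequence were kept. Peaks sharing at least 1 bp were merged in Python 3.11.15 with pandas 2.3.3, and a region counted as called in each list with a peak in it. Gene positions came from a RefSeq table of GRCh38.p14 with 20052 protein-coding genes, and a distal region lay more than 1 kb from both ends of each. The background pileup was recovered from the step between fold values. The WT-only share was standardised over 10 strata of wild-type fold. Library values were tested by exact two-sided permutation of the group labels (20 labellings). Intervals are Wilson intervals at the 95% level and cover counting error only. The limits given for counts of 0 are not Wilson bounds but 3 divided by the number of regions. The members, gene lists, rules and tests were chosen with earlier results of these data known. Named were, per chromosome, the 5 members in all 6 lists and the 5 WT-only members with the highest wild-type fold, the 3 KO-only members with the highest knockout fold, and the 3 of each kind at equal list length. Further named were up to 4 genes per list with the most wild-type members within 50 kb, from which examples were taken. Other names were added after their values were seen: list genes with an exclusive region and the chromosomes set beside the members. Code was tested on simulated data. Alternatives were equal list length, a −log10 q-value of at least 5, other distances, gene records, overlaps, strata and presence rules, leaving out each library, and a replicate block. A fold of at least 4, a limit of 500 kb, strata crossed with distance and removal of peak-dense bins were added after seeing the data, as was the comparison by base composition.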

Additional observations from a re-analysis of the deposited data

How the results depend on the processing

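The difference in share of distal peaks on chromosomes 19 and 22 stayed positive under the alternatives run, from 1.74 to 2.03 percentage points when each library was left out. With the replicate number as a block it was 1.88 (exact sign-flip p = 0.25, the smallest 3 pairs allow); same-numbered libraries had correlations of -0.02, 0.005 and -0.16 in their deviations, so the number does not pair them, and no other result has a blocked fit. At equal list length the WT-only share was 0.866% on chromosome 19 and 0% on chromosome 22, and their differences from the share at equal wild-type fold were -10.1 and -12.3 points, with 2 WT-only and 85 KO-only regions in all, so that the balance of exclusive calls, 22 WT-only against 7 KO-only in the full lists, turned to the knockout. The median log2 ratio of chromosome 19 went from 0.03 to -0.0031. Presence in 2 of 3 lists gave 8.65% and 9.41%, differences of -25.8 and -31.0, and 81 WT-only and 53 KO-only regions. On chromosome 19 the difference was -23.4 at a −log10 q-value of at least 5, -23.5 beyond 5 kb and -23.3 without peak-dense bins. On chromosome 22 it was -27.7 with every gene record in the distance rule and -27.5 without peak-dense bins. A fold of at least 4 left 13 WT-only regions, and a −log10 q-value of at least 5 left 3 KO-only. Leaving out each library gave WT-only shares of 4.57 to 7.43% (chromosome 19) and 3.42 to 6.37% (chromosome 22), and differences of -24.8 to -21.0 and of -31.7 to -25.2. WT-only regions then numbered 28 to 50: 28 without knockout library 1, 40 without knockout library 2, 45 without knockout library 3, and 41, 39 and 50 without wild-type libraries 1, 2 and 3. KO-only regions numbered 13 to 27: 27, 18 and 23 without knockout libraries 1, 2 and 3 and 15, 17 and 13 without wild-type libraries 1, 2 and 3. Leaving out a library asks for fewer lists, which by construction lets more regions count as exclusive. The cause of the other movements was not tested. The difference in share of peaks and both differences in WT-only share kept their sign under every alternative run. The lists carry no read totals, and a region missing from a knockout list may be open below its calling threshold.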

Other observations

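The intervals left out of the regions above held distal peaks as well. On chromosome 19 from 25 to 27 Mb, of 145 regions present in all wild-type lists 4 counted as WT-only and the 98 regions in all 6 lists had a median log2 ratio of 0.06. On chromosome 22 from 11 to 13 Mb the count was 4 of 100 and the median of 75 regions 0.04. In the immunoglobulin lambda locus, which encodes antibody light chains, it was 0 of 5, with a median of 0.06 over those 5 regions.

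MicroRNA hairpins lay in a few members. The hairpin of hsa-miR-4323 lay in the POU2F2 member described above, and that of hsa-miR-658, near ANKRD54, in a member called in all 6 lists with a mean fold of 16.7 in knockout and 13.2 in wild-type libraries. The hairpin of hsa-miR-330, near EML2, lay in a member found in 2 knockout and 3 wild-type lists, and that of hsa-miR-23a in one found in 1 wild-type list. These peaks say nothing of how much of each microRNA was made.

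Of single coding genes, MICAL3 had the most members inside it among those present in all wild-type lists, 5, followed by ACTN4, GNG7, LMTK3 and LTBP4 with 4 each. Within 50 kb, MICAL3 and GNG7 had 1 WT-only member each, and ACTN4, LMTK3 and LTBP4 had 0.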
